A study of Homo sapiens with 30 samples.

Results

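The 9 genes described here, GATA2, GATA3, GATA4, GATA6, TFAP2A, TFAP2B, TFAP2C, HAND1 and ISL1, encode transcription factors that regulate amnion, trophoblast and early mesoderm. They were chosen by symbol, and all 9 were among the 27348 genes listed in both RNA count tables. GATA factors are zinc finger proteins, TFAP2 genes encode the AP-2 proteins, HAND1 is a basic helix-loop-helix protein and ISL1 a LIM homeodomain protein. In human embryos, GATA2, GATA3, TFAP2A and TFAP2C are known from trophoblast, and HAND1, ISL1 and TFAP2A from amnion. HAND1 and ISL1 also act in lateral and cardiac mesoderm, and GATA4 and GATA6 act in both endoderm and heart. In cultured human pluripotent cells, BMP signalling is a well known inducer of several of these genes.

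RUES2, a human embryonic stem cell line, was grown in E7 medium with a ROCK inhibitor, which all 8 groups share, and sequenced as bulk RNA in 2 libraries per group. At 48 h, WNT_CPI_ACT had received Wnt3a (100 ng/mL) and CPI-203 (1 µM) on day 1, followed by 10 ng/mL Activin A on day 2; WNT_ACT had the same without CPI-203, WNT_E7 had Wnt3a and then medium alone, and E7_ACT had medium and then Activin A. At 24 h, WNT_CPI had Wnt3a with CPI-203, WNT had Wnt3a, E7_CPI had CPI-203 and E7 had medium only. CPI-203 blocks the BET bromodomain proteins, which bind acetylated chromatin; Wnt3a activates beta-catenin signalling, and Activin A is the ligand used in culture to stand in for Nodal. Because no library of cells kept in medium alone for 48 h was used here, Activin A and a second day in culture cannot be told apart in the comparison of E7_ACT with E7. The cells are a single line, and nothing in the labels says that replicates were separate cultures, so p-values reflect the spread among these libraries alone, which may be technical.

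Library totals ran from 36268324 counts in WNT replicate 2 to 43347733 counts in WNT_CPI replicate 2. POU5F1, which marks pluripotent cells, stood at 238 to 976 CPM (a gene's counts relative to its library's TMM-scaled total) over the 16 libraries. The E7_CPI replicate 1 column had a Spearman correlation of 0.00159 with E7_CPI replicate 2 in its own table's gene order and of 0.986 when read in the order of the other table, which was used. Read so, the 2 E7_CPI libraries differed far less than other replicates: the median chi-square per gene was 0.995 between them, against 10.1 to 19.96 in the other 7 groups and 0.455 from counting noise alone. It has not been shown that they are independent samples, so several results on E7_CPI are given with and without replicate 1. The others rest on both libraries. Leaving that library out also widens the shared estimate of spread, so the value without it is given wherever this ends the call of a gene named below or moves a count of calls by over 1.5 times.

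**Figure D1:**
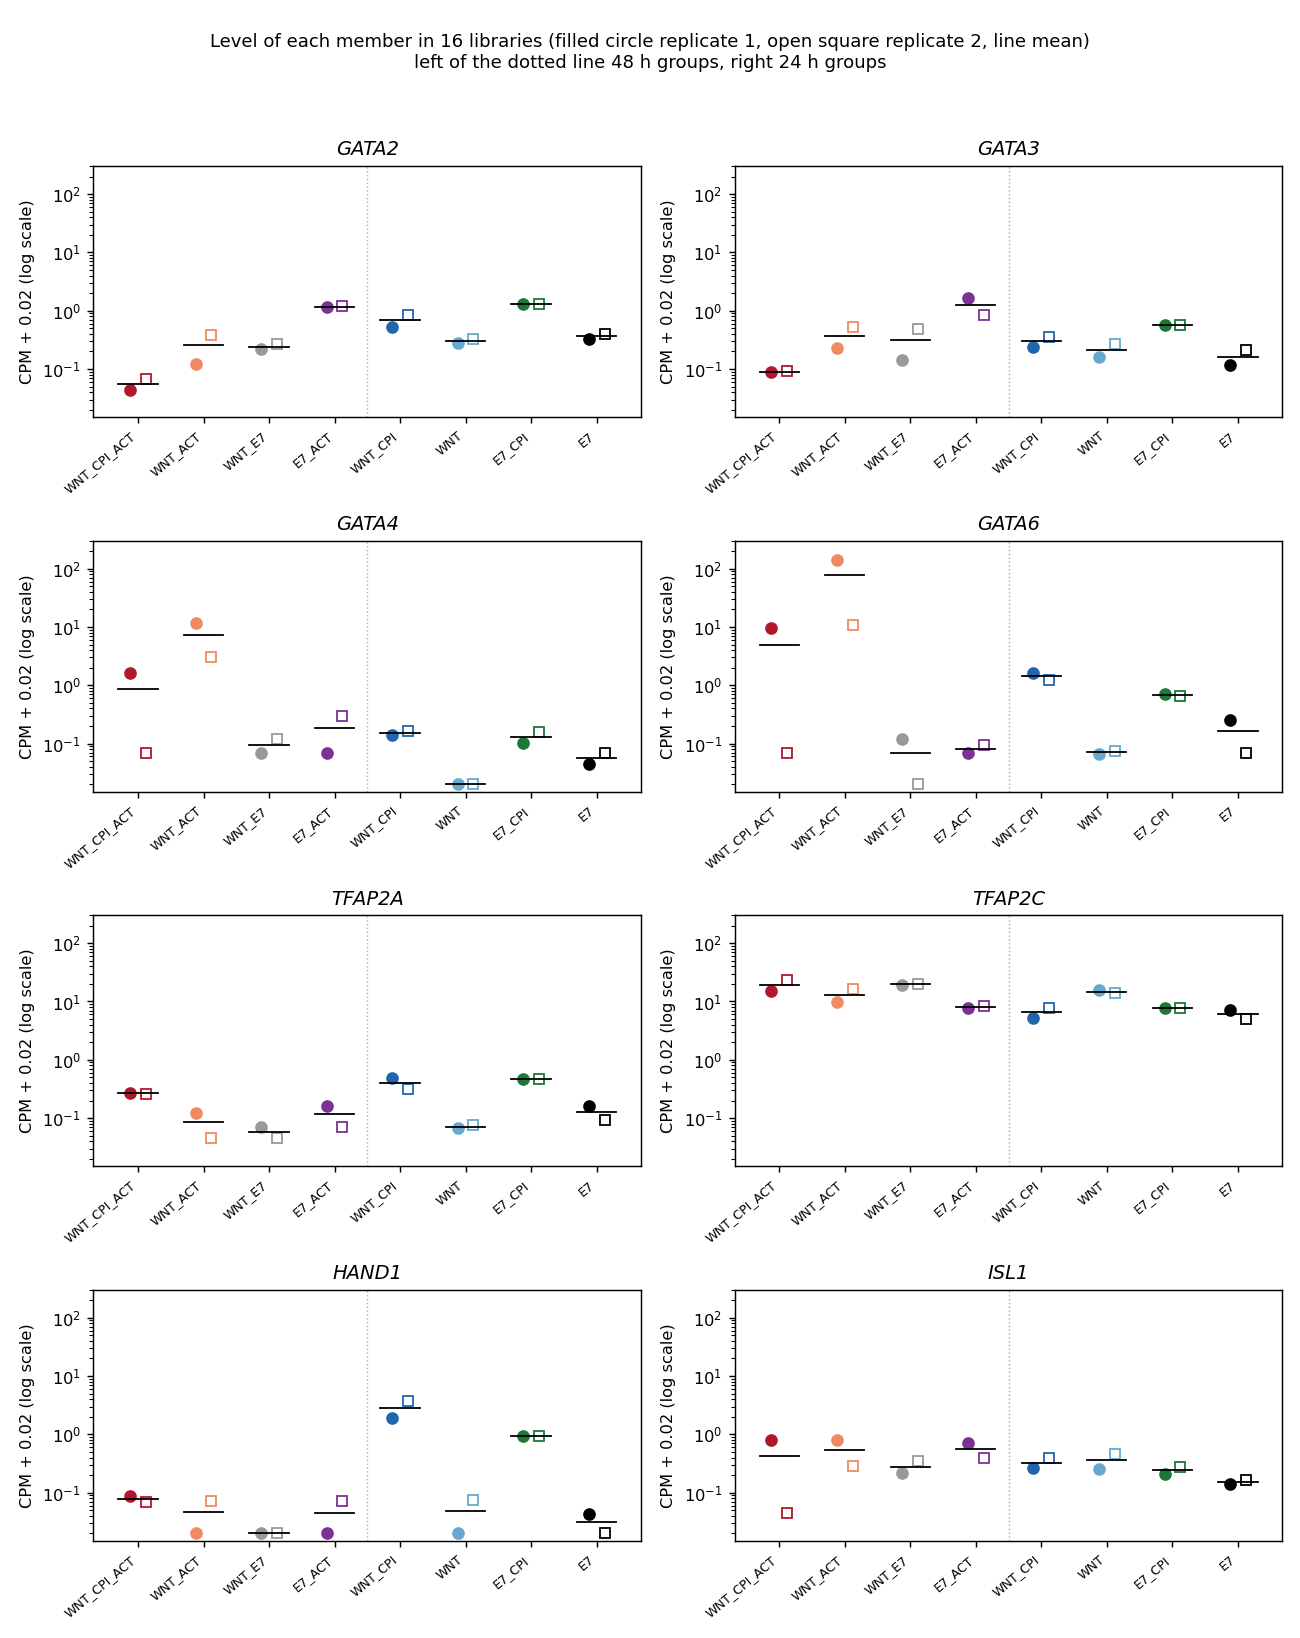
Levels of the 8 genes with counts, as CPM plus 0.02 on a log axis, in each of the 16 libraries; filled circles and open squares are replicates 1 and 2, short lines their mean, and the dotted line separates the 48 h groups (left) from the 24 h groups (right). HAND1 stands clear of the other groups in WNT_CPI and E7_CPI, GATA4 and GATA6 reach their highest levels in WNT_ACT replicate 1, and TFAP2C is well counted in all 16 libraries.

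Of the 9 genes, 8 passed the filter on low counts, and 5 of these (GATA2, GATA3, TFAP2A, HAND1 and ISL1) never reached 5 CPM in any library, so most of the changes below are changes of low-abundance transcripts. TFAP2C was counted in every library, GATA6 and GATA4 were well counted in WNT_ACT, and TFAP2B had no count in any of the 16 libraries, which allows a level of up to 0.0687 to 0.0839 CPM per library (3 counts, counting error only). Levels were not scaled by transcript length, so they are compared between libraries and not between genes. In bulk RNA, fewer cells of a type and less RNA per cell cannot be told apart. Calls are from edgeR's quasi-likelihood test at a Benjamini-Hochberg adjusted p under 0.05 over all 17355 tested genes. With 2 libraries per group, a lack of overlap between 2 groups arises easily by chance. It describes the libraries and is not a test, and its share over all genes is not given. Changes are given as log2 fold changes, most with a standard error (SE). This SE was worked back from the test, as the absolute change divided by the square root of the F statistic. It is rough for genes with few counts.

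HAND1, known as a factor of trophoblast, amnion and heart, was higher with CPI-203 both with and without Wnt3a. WNT_CPI replicates had 1.91 and 3.70 CPM (78 and 152 counts), against 0 and 0.0560 CPM in WNT. E7_CPI replicates had 0.933 and 0.920 CPM (34 and 33 counts), against 0.0238 and 0 CPM in E7. The groups with CPI-203 did not overlap those without in either case. With summed counts the ratio was 110-fold in WNT_CPI against WNT (95% counting interval 30.1 to 914) and 77.7-fold in E7_CPI against E7 (13.5 to 3114), with 2 counts in WNT and 1 in E7. Both changes passed the test, at an adjusted p of 0.00104 in WNT_CPI against WNT and of 0.00327 in E7_CPI against E7. Without E7_CPI replicate 1 these were 0.00294 and 0.0166. The step between the 2 groups with CPI-203 was 1.59 (SE 0.69) in WNT_CPI against E7_CPI, whose libraries did not overlap, and did not pass the test (adjusted p = 0.826).

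A day later, CPI-203 having been given on day 1 only, HAND1 was again near 0. It had 0.0687 and 0.0484 CPM in WNT_CPI_ACT, 5 counts in all, against 230 counts in WNT_CPI. It fell by 5.50 on the log2 scale (SE 0.90, adjusted p = 0.00175; 0.00476 without E7_CPI replicate 1), and the ratio of summed counts was 0.0210 (counting interval 0.00674 to 0.0496). In WNT_ACT, WNT_E7 and E7_ACT the gene had 0 to 0.0527 CPM, within the range of WNT_CPI_ACT or below it.

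TFAP2A, the AP-2 factor of amnion, surface ectoderm and neural crest, was also higher with CPI-203 in both 24 h comparisons, at lower counts. It stood at 0.465 and 0.292 CPM in WNT_CPI, against 0.0469 and 0.0560 CPM in WNT. It stood at 0.439 and 0.446 CPM in E7_CPI, against 0.143 and 0.0716 CPM in E7. Neither pair overlapped, and TFAP2A rose by 2.81 (SE 0.65) in WNT_CPI against WNT, with an adjusted p of 0.00756 and of 0.0618 without WNT replicate 1. The change of 2.01 (SE 0.57) in E7_CPI against E7 had an adjusted p of 0.0208 with all libraries. It missed the threshold without E7_CPI replicate 1 (0.0811), without E7_CPI replicate 2 (0.0836) and without E7 replicate 2 (0.131).

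Unlike HAND1, TFAP2A was not called lower after the second day. WNT_CPI_ACT had 0.252 and 0.242 CPM, just under the lower WNT_CPI library, and the difference of -0.61 (SE 0.52) did not pass the test (adjusted p = 0.446). Against WNT_ACT, at 0.102 and 0.0264 CPM, it was 1.88 (SE 0.64) higher in WNT_CPI_ACT without overlap, at an adjusted p of 0.125, and of 0.0482 with the replicate number as a block. TFAP2A-AS2, a transcript from the opposite strand, had 0.252 and 0.484 CPM in WNT_CPI_ACT, against 0.0512 and 0.0791 CPM in WNT_ACT, and rose by 2.44 (SE 0.59, adjusted p = 0.0373; 0.0628 without E7_CPI replicate 1). Whether strand was used in counting is not given in the sources used here, so reads from a gene and its antisense partner cannot be told apart.

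HAND1 and TFAP2A were called higher with CPI-203 in both 24 h comparisons. GATA6 also stood higher with CPI-203 at 24 h, but was not called there without the replicate block. The promoters of HAND1, TFAP2A and GATA6 are shown. Each is the 250 bases before the gene's outermost annotated start, 5′ to 3′ on the gene's strand, from RefSeq for GRCh38.p14. They lie at chr5:154478228-154478477 (minus strand) for HAND1, chr6:10419660-10419909 (minus) for TFAP2A and chr18:22169339-22169588 (plus) for GATA6. Any other annotated start is not shown, and which start these cells used was not tested. Capitals mark matches, on either strand, to GATAA (GATA factors), CTTTGAA (TCF/LEF factors of the Wnt pathway), GCCNNNGGC (AP-2) and TATAA (TATA box).
HAND1: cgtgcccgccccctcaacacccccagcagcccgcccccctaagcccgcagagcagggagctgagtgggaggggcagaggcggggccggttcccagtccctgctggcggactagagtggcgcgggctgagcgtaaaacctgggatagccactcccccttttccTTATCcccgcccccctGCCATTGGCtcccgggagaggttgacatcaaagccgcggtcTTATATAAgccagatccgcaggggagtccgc
TFAP2A: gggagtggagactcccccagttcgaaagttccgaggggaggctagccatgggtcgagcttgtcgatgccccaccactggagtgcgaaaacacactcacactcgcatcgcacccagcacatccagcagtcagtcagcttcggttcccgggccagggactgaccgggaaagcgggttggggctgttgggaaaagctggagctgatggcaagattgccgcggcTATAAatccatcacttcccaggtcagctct
GATA6: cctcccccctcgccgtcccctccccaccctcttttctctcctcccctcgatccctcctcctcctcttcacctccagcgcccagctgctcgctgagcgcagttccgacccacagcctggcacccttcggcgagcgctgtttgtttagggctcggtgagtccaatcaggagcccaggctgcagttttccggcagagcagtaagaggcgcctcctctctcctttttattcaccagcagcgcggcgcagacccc
The HAND1 window held a GATAA match on the minus strand at -88 to -84, an AP-2 match at -72 to -64, and 2 overlapping TATAA matches, on opposite strands, between -31 and -24 (positions count back from the start). The TFAP2A window held TATAA at -30 to -26 and no other match, and the GATA6 window held none of the 4. Among 35116 windows of this length, 20.4% held GATAA, 3.80% CTTTGAA, 19.8% the AP-2 motif and 18.9% TATAA, so such matches are common. RefSeq promoter entries were found for 7 of the 9 genes. A match describes the letters and does not show a bound site.

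**Figure D2:**
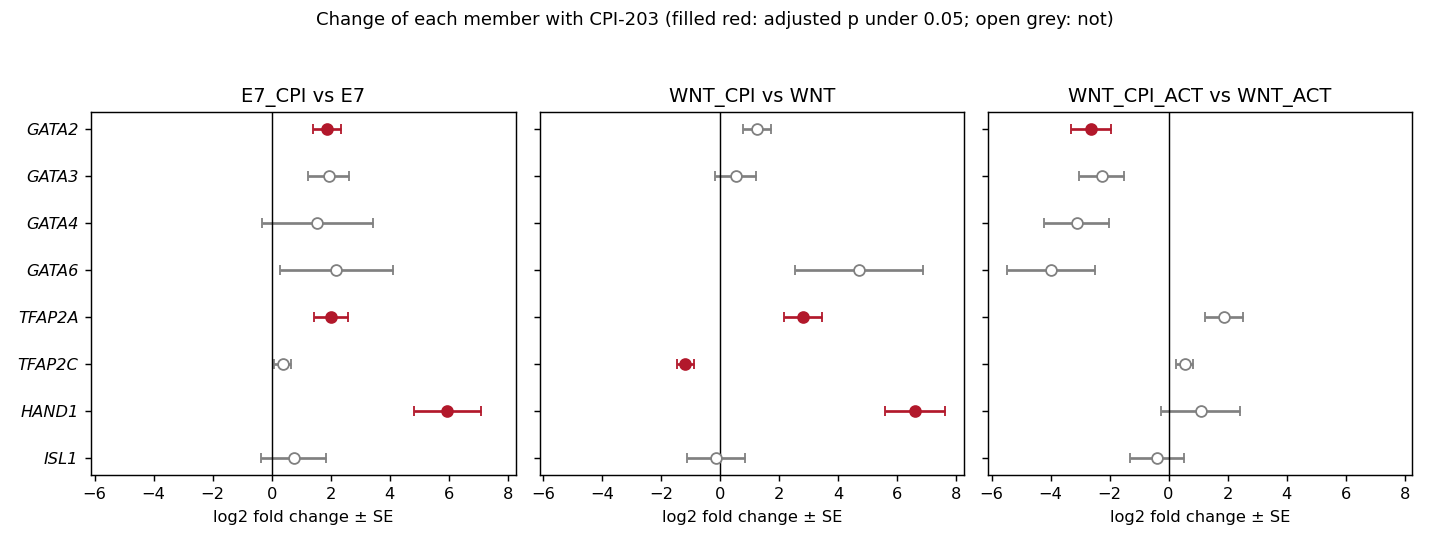
Log2 fold changes with standard errors for the tested genes in WNT_CPI_ACT against WNT_ACT, WNT_CPI against WNT and E7_CPI against E7; GATA4 is not drawn for WNT_CPI against WNT because WNT had no count. HAND1 and TFAP2A lie above 0 in both 24 h comparisons, TFAP2C lies below 0 in WNT_CPI against WNT, and GATA2, GATA3, GATA4 and GATA6 lie below 0 in WNT_CPI_ACT against WNT_ACT.

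TFAP2C, the AP-2 factor of trophoblast that human pluripotent and germ cells also use, was the exception at 24 h. It had 5.27 and 7.83 CPM in WNT_CPI, against 15.6 and 14.0 CPM in WNT, and fell by 1.17 (SE 0.30, adjusted p = 0.0125). The 2 groups did not overlap. The call was lost without WNT replicate 1 (adjusted p = 0.0606) or without WNT_CPI replicate 1 (0.102). Without Wnt3a it stood at 7.85 and 7.86 CPM in E7_CPI, against 7.17 and 5.02 CPM in E7, a difference of 0.37 (SE 0.30) that did not pass the test (adjusted p = 0.380). The difference between the 2 effects of CPI-203, with minus without Wnt3a, was -1.54 (SE 0.42) and did not pass either (adjusted p = 0.995). None of the 8 genes passed in that contrast under edgeR or DESeq2, and 1 had an unadjusted p under 0.05. Of all genes edgeR called 0.0115%, DESeq2 called 33, and 442 had an unadjusted p under 0.05.

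Wnt3a alone gave TFAP2C 15.6 and 14.0 CPM in WNT, against 7.17 and 5.02 CPM in E7. The groups did not overlap, and the change of 1.28 (SE 0.30) had an adjusted p of 0.130, or of 0.0360 with the replicate block. This was the sole member of the 8 with an unadjusted p under 0.05 in WNT against E7, beside 1064 of all genes. There edgeR called 0 members, beside 0.605% of all genes (1.72% with the block). DESeq2 called 1 member, beside 303 of all genes.

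At 48 h the order of TFAP2C was different. WNT_CPI_ACT had 15.1 and 22.9 CPM, against 9.71 and 16.4 CPM in WNT_ACT. The groups overlapped, and the difference of 0.54 (SE 0.29) did not pass the test (adjusted p = 0.382). Against WNT_CPI, TFAP2C rose by 1.53 (SE 0.30, adjusted p = 0.00353) in WNT_CPI_ACT, a ratio of summed counts of 2.88. The highest mean was in WNT_E7, at 19.4 and 20.2 CPM, within the range of WNT_CPI_ACT. From the highest mean to the lowest the groups ran WNT_E7, WNT_CPI_ACT, WNT and WNT_ACT, each overlapping the next, and then, below a gap, E7_ACT, E7_CPI, WNT_CPI and E7. The first 4 are all the groups that had received Wnt3a other than WNT_CPI.

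**Figure D3:**
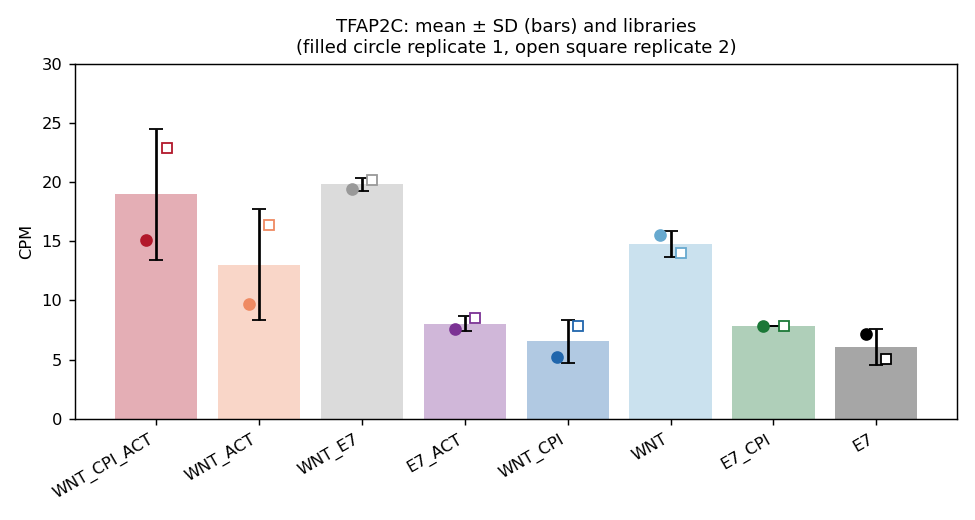
TFAP2C in the 8 groups; bars are means of 2 libraries, error bars the SD and points the libraries, in CPM. The 4 groups WNT_CPI_ACT, WNT_ACT, WNT_E7 and WNT lie at 9.71 CPM or more in each library, and the other 4 groups at 8.48 CPM or less.

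In WNT_CPI against WNT, the fit with the replicate block called 5 of the 8 tested genes, beside 47.4% of all tested genes. Without the block 3 were called, HAND1 and TFAP2A higher and TFAP2C lower, beside 31.0% of all tested genes (13.0% higher and 17.9% lower). Without E7_CPI replicate 1 the same 3 were called, beside 26.5% of all genes. In E7_CPI against E7, 3 were called, all higher, beside 32.7% of all genes (15.0% higher and 17.6% lower). Without E7_CPI replicate 1 HAND1 alone was called there, beside 17.5% of all genes. These shares are close to those among all genes, so the counts do not set the genes apart from the transcriptome under CPI-203. In WNT_CPI against E7_CPI none of the 8 was called by edgeR or DESeq2, and 1 had an unadjusted p under 0.05. Of all genes edgeR called 0.386%, DESeq2 called 223, and 1018 had an unadjusted p under 0.05.

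GATA2, a factor of trophoblast and blood progenitors, was highest in E7_CPI and E7_ACT, while E7, also without Wnt3a, stood below WNT_CPI. E7_CPI had 1.26 and 1.28 CPM, against 0.310 and 0.382 CPM in E7. E7_ACT had 1.13 and 1.16 CPM. Neither overlapped E7. In E7_CPI against E7 the change was 1.87 (SE 0.46), with an adjusted p of 0.0107 over all libraries, of 0.0507 without E7_CPI replicate 1, of 0.0524 without E7_CPI replicate 2 and of 0.0802 without E7 replicate 1. In E7_ACT against E7 the change was 1.72 (SE 0.46), with an adjusted p of 0.174, and of 0.0321 with the replicate block. WNT_CPI, at 0.514 and 0.827 CPM, also stood above WNT, at 0.258 and 0.308 CPM, but the change of 1.24 (SE 0.48) had an adjusted p of 0.0732, or 0.0272 with the block.

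GATA3, a pioneer factor of trophoblast, had its highest levels in E7_ACT, at 1.61 and 0.810 CPM, against 0.0953 and 0.191 CPM in E7. No E7_ACT library overlapped any library of the other 7 groups. The change of 3.05 (SE 0.68) had an adjusted p of 0.0851, and of 0.0196 with the replicate block; the ratio of summed counts was 8.53 (counting interval 4.67 to 17.1). GATA3 stood at 0.549 and 0.558 CPM in E7_CPI, above both E7 libraries, with a change of 1.93 (SE 0.69) that just missed the threshold (adjusted p = 0.0542; 0.148 without E7_CPI replicate 1). In WNT_CPI, at 0.220 and 0.341 CPM, it overlapped WNT, at 0.141 and 0.252 CPM (difference 0.53, SE 0.70, adjusted p = 0.627).

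In E7_ACT against E7 none of the 8 genes was called by edgeR, 2 had an unadjusted p under 0.05 and DESeq2 called 2, GATA2 and GATA3. Of all genes edgeR called 0.599%, and 2.79% with the block, which also called these 2. An unadjusted p under 0.05 was found for 1380 of all genes, and DESeq2 called 439. In the same comparison 5 of 22 genes of the BMP pathway and its direct targets rose and none fell, with a median change of 0.48 beside 0.01 over all genes; 2 passed without E7_CPI replicate 1. Among them were SMAD6 (3.11, SE 0.48, adjusted p = 0.0215) and SMAD7 (3.11, SE 0.43, adjusted p = 0.0132), inhibitors that BMP and Activin signals induce. The summed level of the BMP list was 643 and 725 CPM in E7_ACT, against 407 and 449 CPM in E7. Its part in the levels of GATA2 and GATA3 was not tested.

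Both genes were lower when Wnt3a came before Activin A. GATA2 had 0.102 and 0.369 CPM in WNT_ACT, against 1.13 and 1.16 CPM in E7_ACT, without overlap. It fell by 2.27 (SE 0.48, adjusted p = 0.0299), a call lost without E7_CPI replicate 1 (0.0590), either E7_ACT replicate (0.144 without replicate 1 and 0.104 without replicate 2) or WNT_ACT replicate 1 (0.150); with the block the adjusted p was 0.00434. GATA3 had 0.205 and 0.501 CPM in WNT_ACT, against 1.61 and 0.810 CPM in E7_ACT, also without overlap, and its difference of -1.77 (SE 0.62) did not pass the test (adjusted p = 0.195).

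The lowest GATA2 and GATA3 levels of any group followed CPI-203 with Wnt3a and then Activin A. GATA2 had 0.0229 and 0.0484 CPM in WNT_CPI_ACT, 3 counts in all, against 0.102 and 0.369 CPM (18 counts) in WNT_ACT and 0.514 and 0.827 CPM (55 counts) in WNT_CPI. Against WNT_CPI the ratio of summed counts was 0.0526 (counting interval 0.0105 to 0.162), and GATA2 fell with an adjusted p of 0.000811, or 0.00217 without E7_CPI replicate 1. Against WNT_ACT the ratio was 0.151 (0.0285 to 0.517), with an adjusted p of 0.0463. That call was lost without E7_CPI replicate 1 (0.0789), either WNT_CPI_ACT library (0.205 without replicate 1 and 0.136 without replicate 2) or WNT_ACT replicate 2 (0.563). GATA3 had 0.0687 and 0.0726 CPM in WNT_CPI_ACT, below every library of the other groups, and its difference of -2.27 (SE 0.77) from WNT_ACT did not pass the test (adjusted p = 0.125), nor did that of -1.94 (SE 0.78) from WNT_CPI (adjusted p = 0.0932).

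GATA4 and GATA6, factors of endoderm and heart, were highest after Wnt3a and then Activin A. GATA6 had 143 and 11.0 CPM in WNT_ACT (5572 and 416 counts), against 0.0469 and 0.0560 CPM in WNT. GATA4 had 11.5 and 3.004 CPM in WNT_ACT (450 and 114 counts), against no count in WNT. In both genes each WNT_ACT library stood above every library of the other 7 groups, and replicate 1 stood far above replicate 2, 13.02-fold for GATA6. The ratio of summed GATA6 counts to WNT was 1525 (counting interval 595 to 5598; 4 counts in WNT). For GATA4 the lower limit of the counting interval was 155, and the ratio was 191 with 3 counts set for the WNT group.

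GATA4 (adjusted p = 0.0333) and GATA6 (adjusted p = 0.0449) rose in WNT_ACT against WNT and were the 2 members called, beside 1.68% of all genes (1.20% higher; 6.44% in all with the block). The calls rested on the full set of libraries. Without E7_CPI replicate 1 the adjusted p was 0.0687 for GATA4 and 0.0853 for GATA6, and without WNT_ACT replicate 1 it was 0.164 and 0.213 for the same genes; without E7_CPI replicate 1 0.629% of all genes were called. Without WNT replicate 1 it was 0.236 for GATA4 and 0.322 for GATA6, and without WNT replicate 2 it was 0.210 and 0.301. With the block it was 0.00643 for GATA4 and 0.00346 for GATA6.

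Neither Wnt3a nor Activin A alone gave such levels. WNT_E7 had 0.0988 and 0 CPM of GATA6 and 0.0494 and 0.0995 CPM of GATA4. E7_ACT had 0.0481 and 0.0760 CPM of GATA6 and 0.0481 and 0.279 CPM of GATA4. WNT_ACT lay above both groups in each library. Against E7_ACT, GATA6 rose by 10.21 (SE 2.16, adjusted p = 0.0292) and GATA4 by 5.46 (SE 1.29, adjusted p = 0.0496), with GATA2 the third gene called, beside 3.84% of all genes (8.69% with the block). Without E7_CPI replicate 1 these 2 adjusted p-values were 0.0540 and 0.0881, and 2.13% of all genes were called. They were 0.133 and 0.246 without WNT_ACT replicate 1, 0.235 and 0.311 without E7_ACT replicate 1, and 0.169 and 0.143 without E7_ACT replicate 2. Against WNT_E7 the changes were 10.51 (SE 2.21) for GATA6 and 6.55 (SE 1.41) for GATA4, with an adjusted p of 0.0582 and 0.0693 without and of 0.00463 and 0.0141 with the block. There edgeR called 0 members, beside 0.882% of all genes (4.45% with the block). An unadjusted p under 0.05 was found for 2 members, beside 1747 of all genes. DESeq2 called 2 members, beside 688 of all genes.

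Genes of definitive endoderm and the anterior streak moved with GATA4 and GATA6. The summed level of the 15 genes of that list was 3693 and 475 CPM in WNT_ACT, against 71.1 and 79.7 CPM over the WNT libraries, so replicate 1 was again the higher. In WNT_ACT against E7_ACT 7 of the 15 rose and none fell, with a median change of 4.18 beside -0.01 over all genes; 2 passed without E7_CPI replicate 1. EOMES, which starts the endoderm programme, rose by 8.17 (SE 1.26, adjusted p = 0.00725), and SOX17, the endoderm factor, had 41.5 and 7.54 CPM in WNT_ACT and no count in E7_ACT (adjusted p = 0.0499; 0.0916 without E7_CPI replicate 1). GATA6-AS1, antisense to GATA6, had 6.30 and 0.422 CPM in WNT_ACT, against no count in WNT.

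**Figure D4:**
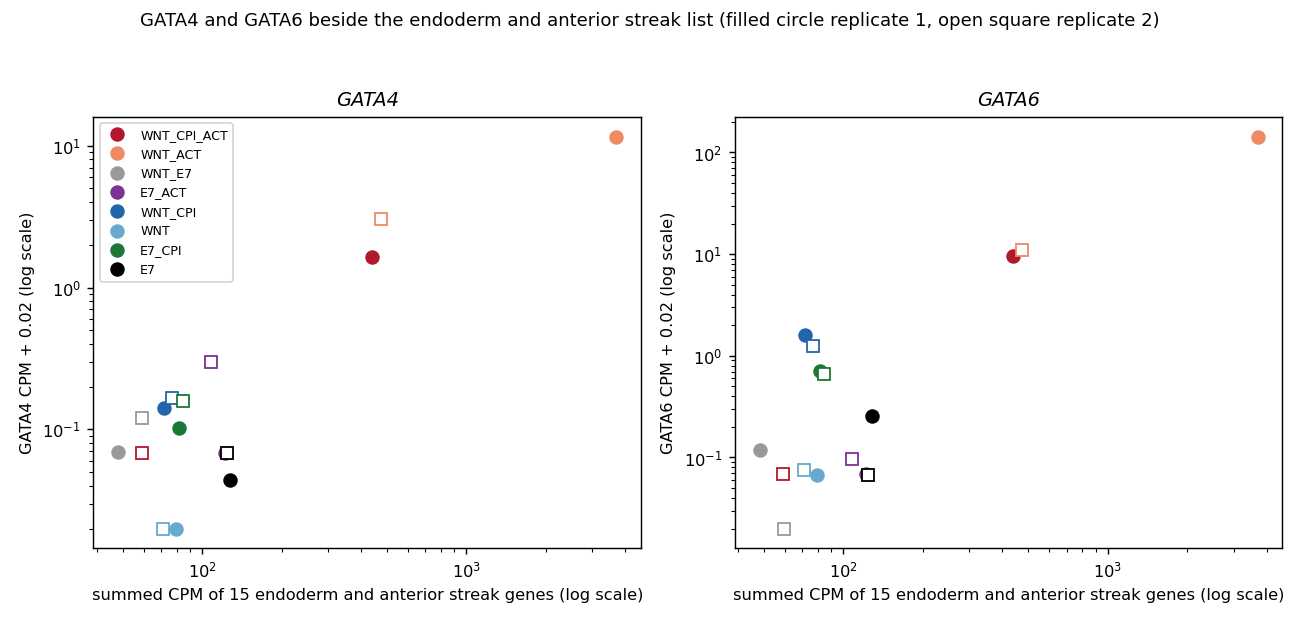
GATA4 and GATA6 levels (CPM plus 0.02) against the summed CPM of 15 genes of definitive endoderm and anterior streak in the 16 libraries, all axes log. The WNT_ACT libraries, at 3693 and 475 CPM of the list, and WNT_CPI_ACT replicate 1, at 439 CPM, lie apart from the rest, which have 128 CPM or less.

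With CPI-203 on the first day, both genes were lower on the second. GATA6 had 9.67 and 0.0484 CPM in WNT_CPI_ACT, against 143 and 11.0 CPM in WNT_ACT. GATA4 had 1.63 and 0.0484 CPM in WNT_CPI_ACT, against 11.5 and 3.004 CPM in WNT_ACT. The groups did not overlap, and WNT_CPI_ACT replicate 2 had 2 counts of each gene. The differences of -3.98 (SE 1.49) for GATA6 and -3.11 (SE 1.10) for GATA4 did not pass the test (adjusted p = 0.161 and 0.145) and did with the replicate block (0.0113 and 0.0277) or without WNT_CPI_ACT replicate 1 (0.0210 and 0.0221). GATA2 was the sole gene of the 8 called in WNT_CPI_ACT against WNT_ACT, beside 5.90% of all genes (0 beside 3.64% without E7_CPI replicate 1); with the block 4 were called, GATA2, GATA4, GATA6 and TFAP2A, beside 15.1%. The endoderm list summed to 439 and 59.1 CPM in WNT_CPI_ACT, against 3693 and 475 CPM in WNT_ACT, and 1 of its 15 genes fell, 10 with the block and none without E7_CPI replicate 1, with a median change of -2.86 beside 0.00 over all genes. GATA6-AS1 had 0.664 CPM and no count in WNT_CPI_ACT.

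At 24 h GATA6 stood higher in each library with CPI-203. It had 1.59 and 1.22 CPM in WNT_CPI, 115 counts against 4 in WNT, a ratio of 27.5 (counting interval 10.5 to 103). The libraries did not overlap, and the change of 4.70 (SE 2.17) had an adjusted p of 0.129, or 0.0308 with the replicate block. E7_CPI had 0.686 and 0.641 CPM, against 0.238 and 0.0478 CPM in E7, a change of 2.19 (SE 1.92) that did not pass the test (adjusted p = 0.417). GATA4 had 11 counts over WNT_CPI and 0 over WNT. The lower limit of the counting interval of this ratio was 2.40, and the ratio was 3.51 with 3 counts set for WNT. GATA4 stayed at 0.146 CPM or less in the 24 h groups.

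ISL1, a factor of amnion and cardiac progenitors, was not called in any of the 13 contrasts. It had 0.697 and 0.380 CPM in E7_ACT, against 0.119 and 0.143 CPM in E7, without overlap, and the change of 2.01 (SE 1.03) had an adjusted p of 0.740. In WNT_CPI_ACT it had 0.779 and 0.0242 CPM, 34 counts in replicate 1 and 1 in replicate 2, against 0.794 and 0.264 CPM in WNT_ACT. The replicates of that group thus spanned nearly the whole range of ISL1 over the 16 libraries. In E7_CPI it had 0.192 and 0.251 CPM, with a difference of 0.74 (SE 1.11) from E7 that did not pass the test (adjusted p = 0.648).

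In WNT_CPI_ACT against WNT_CPI 3 of the 8 genes were called, TFAP2C higher and GATA2 and HAND1 lower, beside 26.9% of all genes. These 3 calls held without E7_CPI replicate 1, where 22.8% of all genes were called. The effect of CPI-203 at 48 h minus that at 24 h was called for 3 of the 8, beside 13.3% of all genes (26.9% with the block): it was lower for GATA2 and GATA6 and higher for TFAP2C. In WNT_E7 against WNT no gene of the 8 was called by edgeR or DESeq2 and none had an unadjusted p under 0.05; over all genes edgeR called none as well, 397 had an unadjusted p under 0.05 and DESeq2 called 12. TFAP2C, for example, differed by 0.42 there, with WNT_E7 above WNT in each library.

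Related genes were counted beside the 9. Of all tested genes, 15.0% were called higher and 17.6% lower in E7_CPI against E7, and 13.0% and 17.9% in WNT_CPI against WNT. Of 6 paralogs outside the set 3 were tested: ISL2 rose by 2.33 (SE 0.56, adjusted p = 0.00884) in E7_CPI against E7, and GATA5 rose by 2.94 (SE 0.87, adjusted p = 0.0259) in WNT_CPI against WNT. Of 18 tested cofactors of these proteins 5 rose and 8 fell in E7_CPI against E7, or 4 and 3 without E7_CPI replicate 1. Among these were MEF2C, a partner of GATA and HAND factors in the heart (2.67, SE 0.42, adjusted p = 0.000816), LDB2, which binds LIM homeodomain proteins (-2.75, SE 0.19, adjusted p = 6.87e-06), and KCTD15, a repressor of AP-2 proteins (-3.33, SE 0.22, adjusted p = 5.87e-06). In WNT_CPI against WNT the changes were 2.29 for MEF2C, -3.89 for LDB2 and -3.73 for KCTD15, all called. LDB2 and KCTD15 rose in WNT_CPI_ACT against WNT_CPI, by 4.79 and 3.71.

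Markers of tissues in which the 9 genes act both rose and fell in WNT_CPI against WNT. Of 16 amnion genes 5 rose and 4 fell, and of 15 trophoblast genes 5 rose and 4 fell. Of 12 genes of lateral and cardiac mesoderm 4 rose and 3 fell. Of 15 genes of definitive endoderm and anterior streak 4 rose and 1 fell. The medians were 0.60, 0.24, 0.48 and 1.15 for these lists in that order, beside -0.01 over all genes. DLX5 (6.16, SE 1.09, adjusted p = 0.00221) and WNT6 (6.57, SE 1.31, adjusted p = 0.0211) of the amnion list rose, and KRT7, on the amnion and trophoblast lists, fell (-3.16, SE 0.91, adjusted p = 0.0224). CDX2, a trophoblast and posterior streak factor, rose by 3.77 (SE 0.81, adjusted p = 0.00536), with 46.0 and 13.3 CPM in WNT_CPI, against 3.07 and 1.26 CPM in WNT. The trophoblast markers GCM1 and VGLL1 stayed at 0.0973 CPM or less in all 16 libraries, and ITGB6 of the amnion list had no count. In E7_CPI against E7 the amnion list had 4 genes higher and 4 lower, and the trophoblast list 4 and 2. The mesoderm list had 5 and 2 there, and the endoderm list 3 and 1. Without E7_CPI replicate 1 these were 2 and 1, 2 and 1, 3 and 0, and 2 and 0, in that order.

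Of 16 genes of surface ectoderm and neural crest, where TFAP2A also acts, 8 rose and 3 fell in WNT_CPI against WNT, with a median of 1.71. SNAI2, a repressor of epithelial genes, had 18.5 and 24.5 CPM in WNT_CPI, against 0.445 and 0.951 CPM in WNT (4.95, SE 0.49, adjusted p = 5.07e-05). In E7_CPI against E7 7 rose and 2 fell, or 4 and 2 without E7_CPI replicate 1. Of 11 markers of pluripotent cells 8 fell and none rose in each of these comparisons, NANOG most (-7.04, SE 0.42, adjusted p = 2.61e-06 in WNT_CPI against WNT). In WNT_CPI_ACT against WNT_CPI 8 of the 16 ectoderm genes fell and 2 rose, and 6 of the 11 pluripotent cell markers rose and 1 fell.

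Likeness between genes was described by Pearson's r over the 8 group means on a log scale, where groups share libraries of similar depth and the treatments. Within the set r was highest for GATA4 with GATA6 (0.914), TFAP2A with HAND1 (0.863) and GATA2 with GATA3 (0.834), and lowest for GATA2 with TFAP2C (-0.726). Among 14902 other genes, the profile of HAND1 was most like those of USP15 (0.997), BCL2L11 (0.995) and PRPF18 (0.995), and FLRT3 (0.989) and RAP2A (0.981) were among those most like GATA6. TFAP2A was most like FLNC (0.989), GATA2 most like RNF114 (0.980), GATA3 most like IGF1R (0.973), GATA4 most like STK32A (0.972), TFAP2C most like C1GALT1C1 (0.969) and ISL1 most like BRI3BP (0.969). With 8 points and 14902 genes, high values are found for any profile.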

How the data were processed

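RNA values were gene counts as deposited by the authors, in 1 table per replicate number; per the submitters' processing notes, featureCounts, Bowtie2 and DESeq2 were among the tools. The aligner and build of the RNA counts are not given in the sources used here, and a combined list of ATAC positions was not used. Of 27348 shared gene IDs, 27322 had a RefSeq symbol; 625 of 626 genes on chromosome 22 had no count. The E7_CPI replicate 1 column was read in the replicate 2 gene order, with its 12 surplus cells empty.

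Counts of all 16 libraries were fitted in 1 model of the 8 groups with edgeR 4.0.16 (limma 3.58.1, R 4.3.3): filterByExpr, TMM factors 0.948 to 1.05, quasi-likelihood F-test, 8 residual degrees of freedom, Benjamini-Hochberg adjustment over 17355 genes. The threshold was 0.05. CPM were computed from the counts and TMM-scaled totals; intervals of count ratios are exact at 95% and cover counting error only. DESeq2 1.42.0 was an alternative. The fit was also run on simulated counts. These had no pairing of replicates and changed only genes with higher mean counts, so they do not speak for the members with few counts.

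Replicate numbers paired the samples in the 7 groups other than E7_CPI: deviations from the group mean had correlations of 0.457 to 0.898 between groups over 13968 genes (21 group pairs). With E7_CPI the 7 correlations were -0.115 to -0.0353. A fit blocked on replicate number is therefore given beside results without E7_CPI where it changes the call. It lowered the common biological coefficient of variation from 0.271 to 0.147.

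The 9 genes and the lists were chosen with earlier results of these data known. From lists, at most 4 called genes per comparison with the largest change were eligible to be named; genes named for another reason (GCM1, VGLL1, ITGB6, GATA6-AS1, POU5F1) were chosen after their values were seen. For likeness, the 3 genes of highest r per member were eligible. Not every such gene is reported here.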

Additional observations from a re-analysis of the deposited data

Results flagged for a closer look

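The effect of CPI-203 differed between the days in 3 of the 8 tested genes, beside 13.3% of all genes. With the replicate block it differed in 4, beside 26.9% of all genes. The test was of the difference between WNT_CPI_ACT against WNT_ACT (48 h) and WNT_CPI against WNT (24 h). GATA2 was flagged at -3.87 (SE 0.83, adjusted p = 0.0115): its CPI-203 effect was -2.63 at 48 h and 1.24 at 24 h. Without WNT_ACT replicate 2 the adjusted p was 0.105. TFAP2C stood at 1.72 (SE 0.42, adjusted p = 0.0215), with effects of 0.54 at 48 h and -1.17 at 24 h. Its adjusted p was 0.0679 without WNT replicate 1, 0.0806 without WNT_CPI replicate 1, 0.0652 without WNT_ACT replicate 1 and 0.0747 without WNT_CPI_ACT replicate 2. GATA6 stood at -8.68 (SE 2.56, adjusted p = 0.0485), with effects of -3.98 at 48 h and 4.70 at 24 h. The GATA6 call was lost without E7_CPI replicate 1 (0.0736) and without any of WNT replicate 1 (0.162), WNT replicate 2 (0.147), WNT_CPI replicate 1 (0.103), WNT_CPI replicate 2 (0.0905) or WNT_ACT replicate 1 (0.162). GATA4, at -8.57 (SE 2.90), had an adjusted p of 0.0845, and of 0.0483 with the block. WNT had 0 counts of GATA4, against 11 in WNT_CPI, so the size of the GATA4 difference depends on how the fit treats 0 counts. The 48 h groups received Activin A a day after CPI-203, so Activin A, the day and the time since CPI-203 cannot be told apart.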

How the results depend on the processing

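Of the 9 genes' log2 changes printed here and recomputed under each alternative, none reversed; unprinted changes of genes with few counts could change sign. Counts of called genes moved as follows. DESeq2 gave 1 in WNT against E7, 5 in WNT_CPI against WNT, 2 in E7_ACT against E7 and 2 in WNT_ACT against WNT_E7. It gave 0 in WNT_CPI_ACT against WNT_ACT and 5 for the CPI-203 effect at 48 h minus 24 h. Over all genes DESeq2 called 303, 6086, 439, 688, 1819 and 3151 in these comparisons, in the same order. The replicate block, where numbers are paired, gave 1, 5, 2, 2 and 4 in the first 5 of these, and the same with E7_CPI replicate 1 left out; it changed no other count of members by over 1.5 times. Fitting the compared groups alone gave 5 in E7_CPI against E7 and 0 in WNT_ACT against WNT, WNT_ACT against E7_ACT, WNT_CPI_ACT against WNT_ACT and 48 h minus 24 h. Both E7_CPI libraries summed as 1, added after the data were seen like the block without E7_CPI replicate 1, gave 0 in WNT_ACT against WNT, WNT_ACT against E7_ACT and WNT_CPI_ACT against WNT_ACT; no filter also gave 0 in the last. Leaving out 1 library gave 1 to 2 in E7_CPI against E7, 1 to 3 in WNT_CPI against WNT, 0 to 2 in WNT_ACT against WNT, 0 to 1 in WNT_ACT against WNT_E7, 0 to 3 in WNT_ACT against E7_ACT, 0 to 2 in WNT_CPI_ACT against WNT_ACT, 3 to 4 in WNT_CPI_ACT against WNT_CPI and 1 to 4 in 48 h minus 24 h. Fewer samples and genes enter several of these fits. Other causes were not tested. For the fits of compared groups alone, summed E7_CPI libraries, no filter and most left-out libraries, the share of all genes called is not given. Those counts therefore do not set the 9 genes apart from all genes. Genes with few counts limit the precision: 5 of the 8 never reached 5 CPM.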
